A study of Mus musculus with 8 samples.

Results

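Glycolysis and the response to low oxygen were described here through 37 mouse genes of 55450 in the count table. They were taken by symbol from a list drawn up with earlier results of these data known, and fall into 17 glycolytic enzymes, 3 transporters, 3 kinases that set the flux, 6 genes of oxygen sensing and 8 genes that low oxygen induces. All 37 had enough counts to be tested. RNA was sequenced from cells that magnetic beads had enriched for c-Kit, a growth factor receptor of blood precursors, mast cells and melanocytes. The cells came from tumours of B16F10, a pigmented mouse melanoma line, grown under the skin of wild-type C57BL6 mice. One group of 4 libraries came from tumours of PERK KO B16F10 cells, numbered 1 to 4 and called PERK-deficient here, and the other group of 4 from tumours of Scramble B16F10 cells, numbered 2 to 5. PERK, encoded by Eif2ak3, senses misfolded protein in the endoplasmic reticulum and phosphorylates eIF2alpha, which lowers protein synthesis. Only the injected tumour cells differed in PERK, so host cells carried the gene in both groups. The mice were injected at 6 weeks of age with 150000 tumour cells, and tumours were taken on day 17. How the PERK-deficient line was made, and whether it is 1 clone, is not given in the sources used here. Each library is labelled as a numbered sample, taken here as 1 tumour each, while mice are not named. The p-values therefore measure the spread between these samples.

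Glycolysis splits glucose into pyruvate in the cytosol, and lactate dehydrogenase can turn that pyruvate into lactate, which monocarboxylate transporters carry out of the cell. Many steps have several isozymes from separate genes. In low oxygen the hydroxylases of the Egln family stop marking HIF1A and EPAS1 for destruction. These factors then pair with ARNT, bind the letters ACGTG or GCGTG in DNA, and raise glucose transporters, most glycolytic enzymes and genes such as Car9 and Bnip3. Many solid tumours, melanoma among them, are known for high glycolysis and for poorly perfused regions.

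The start regions of 6 members that passed the test are shown because they carry the letters HIF binds in differing numbers. Each has 1 start window in the RefSeq table (build GRCm38.p6, from 250 bases before to 50 bases after the start). ACGTG and GCGTG are in capitals, on either strand, so that the reverse strand reads CACGT or CACGC, and CACGTG counts once on each strand. The first 3 genes rose and the last 3 fell in PERK-deficient tumours.
Egln3 promoter, chr12:54203825-54204124, minus strand: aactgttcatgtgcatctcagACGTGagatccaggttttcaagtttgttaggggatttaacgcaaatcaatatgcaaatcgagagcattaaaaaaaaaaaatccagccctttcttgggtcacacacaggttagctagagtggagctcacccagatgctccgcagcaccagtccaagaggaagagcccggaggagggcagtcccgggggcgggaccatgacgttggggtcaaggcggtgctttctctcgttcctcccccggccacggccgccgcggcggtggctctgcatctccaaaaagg
Slc16a3 promoter, chr11:120948817-120949116, plus strand: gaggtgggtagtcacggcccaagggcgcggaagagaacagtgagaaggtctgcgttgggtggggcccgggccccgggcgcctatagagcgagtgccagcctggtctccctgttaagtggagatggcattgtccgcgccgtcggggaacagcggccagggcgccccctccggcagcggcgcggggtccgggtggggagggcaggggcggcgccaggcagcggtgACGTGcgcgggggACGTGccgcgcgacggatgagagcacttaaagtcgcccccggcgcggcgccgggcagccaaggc
Eno2 promoter, chr6:124769624-124769923, minus strand: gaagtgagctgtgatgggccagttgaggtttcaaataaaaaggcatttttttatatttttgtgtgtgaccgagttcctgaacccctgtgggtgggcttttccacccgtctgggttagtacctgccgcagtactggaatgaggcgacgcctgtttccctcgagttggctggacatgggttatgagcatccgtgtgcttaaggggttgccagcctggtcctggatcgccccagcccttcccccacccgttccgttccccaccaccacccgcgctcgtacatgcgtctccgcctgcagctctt
Hif1a promoter, chr12:73907617-73907916, plus strand: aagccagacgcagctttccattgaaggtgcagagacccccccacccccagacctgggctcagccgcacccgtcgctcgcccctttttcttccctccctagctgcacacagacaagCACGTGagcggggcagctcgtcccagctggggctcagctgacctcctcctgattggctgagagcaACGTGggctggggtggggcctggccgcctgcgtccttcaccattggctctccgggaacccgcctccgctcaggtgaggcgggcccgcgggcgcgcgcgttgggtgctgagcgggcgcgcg
Adm promoter, chr7:110627407-110627706, plus strand: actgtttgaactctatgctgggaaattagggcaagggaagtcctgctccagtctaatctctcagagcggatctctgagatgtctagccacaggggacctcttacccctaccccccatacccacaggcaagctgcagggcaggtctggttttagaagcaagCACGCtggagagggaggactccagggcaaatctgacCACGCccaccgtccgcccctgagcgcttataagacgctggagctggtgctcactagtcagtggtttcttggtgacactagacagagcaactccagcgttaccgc
Gpi1 promoter, chr7:34230287-34230586, minus strand: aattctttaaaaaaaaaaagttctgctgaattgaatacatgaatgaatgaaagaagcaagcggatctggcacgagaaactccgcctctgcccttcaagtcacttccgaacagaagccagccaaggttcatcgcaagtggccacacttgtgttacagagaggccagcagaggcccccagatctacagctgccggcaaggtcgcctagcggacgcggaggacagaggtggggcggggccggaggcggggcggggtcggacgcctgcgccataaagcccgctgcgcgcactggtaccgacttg

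Slc16a3 has the letters 2 times close to its start (at -27 and -14), and Egln3 has them once, at -229, toward the upstream end of its window. Hif1a has 3 matches, of which 2 are the strands of 1 CACGTG, and Adm has 2 of the GCGTG form. Eno2, which rose, and Gpi1, which fell, have none in these windows. Of the 37 members 34 had a window in the table, and Bnip3l, Epas1 and Ndrg1 did not. At least 1 match lay in a window of 31 of the 34, which are 9 of the 11 members that passed the test and 22 of the 23 that did not. Counted by gene that is 91.2%, against 12628 of 27025 symbols in the table (46.7%). Counted by window, 40 of 48 windows of members held a match (83.3%), against 14380 of 32851 windows in the table (43.8%). The table was not limited to genes tested here, and some windows of the same member overlap and share a match. The matches are of letters and say nothing of binding in these cells.

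Library totals ran from 29006949 to 47530393 counts in PERK-deficient tumours and from 44950033 to 56697163 counts in scramble tumours. Eif2ak3, the gene of PERK, had 8.61, 7.73, 22.7 and 16.3 CPM in the PERK-deficient libraries, against 53.4, 56.4, 59.2 and 48.3 CPM in the scramble libraries, and so followed the labels in all 8. CPM are counts scaled to a common library total with TMM, which sets 1 factor per library on the premise that most genes do not differ. Mitochondrial genes took 5.22, 19.2, 13.9 and 6.89% of counts in PERK-deficient libraries 1 to 4, against 3.71 to 4.50% in scramble libraries. The label calls the cells precursors, yet the 16 melanocyte lineage markers together reached 17191 to 20907 CPM in PERK-deficient tumours and 25960 to 26521 CPM in scramble tumours, and 10 of them fell. The 15 pan-leukocyte markers took 602 to 1458 CPM in PERK-deficient and 345 to 414 CPM in scramble tumours, and 14 of them rose. The 11 mast cell markers took 861 to 3351 CPM in PERK-deficient tumours, against 193 to 375 CPM in scramble tumours, and 10 rose. The 15 macrophage and monocyte markers took 349 to 1056 CPM in PERK-deficient tumours, against 65.7 to 165 CPM in scramble tumours, and all 15 rose. The 15 markers of simple and glandular epithelium took 127 to 301 CPM in PERK-deficient tumours, against 6.00 to 11.4 CPM in scramble tumours, where Ehf and Cldn7 had no count, and 13 rose. The 12 endothelial markers took 328 to 633 CPM in PERK-deficient and 346 to 542 CPM in scramble tumours, and 0 passed in edgeR or DESeq2, also at an unadjusted p under 0.05 (0 of 12). Fibroblast and mural markers took 68.5 to 263 CPM in PERK-deficient and 23.3 to 252 CPM in scramble tumours, and 1 of 11 rose. Red cell markers reached at most 15.1 CPM and skeletal muscle markers at most 80.7 CPM in any library. Neither list had a call in edgeR (0 of 5 and 0 of 6 tested), with 0 and 2 genes at an unadjusted p under 0.05 and 0 and 1 called by DESeq2. The cells were not sorted singly, so each value is of a mixture, and fewer cells of a type cannot be told apart from less RNA per cell.

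Of the 37 genes 26 did not pass the test, and those that passed went in both directions. Egln3, Eno2, Slc16a3 and Pfkfb3 rose in PERK-deficient tumours, and Gpi1, Aldoa, Eno1, Ldha, Hif1a, Egln2 and Adm fell. These are 11 of 37 members, at a Benjamini-Hochberg adjusted p under 0.05 in edgeR's quasi-likelihood test across all genes. Over all 16662 genes tested 13.8% passed, 7.66% higher and 6.13% lower, while 10.8% of members were higher and 18.9% lower. Among the 9109 tested genes with a mean of at least 10 CPM, which are nearer to the members in level, 17.2% passed, with 659 genes higher and 911 lower. The median log2 change was -0.01 over the 37 members and -0.02 over all tested genes, which are close to each other. Over the genes with at least 10 CPM it was -0.07. The groups did not overlap at 12 members (32.4%), against 21.3% of all tested genes and 25.2% of those with at least 10 CPM. PERK-deficient tumours lay wholly above scramble tumours at 4 of the 37 members (10.8%), close to the 10.2% of all tested genes. They lay wholly below at 8 of the 37 (21.6%), against 11.1% of all tested genes. For genes with at least 10 CPM the shares were 8.89% wholly above and 16.3% wholly below. Calls over all genes were 55.5% higher ones with TMM, 68.7% with upper-quartile scaling and 47.7% with library totals. Egln3 was 2.44-fold higher in PERK-deficient tumours, and the other calls lay between 0.661-fold (Gpi1) and 1.66-fold (Eno2).

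**Figure D1:**
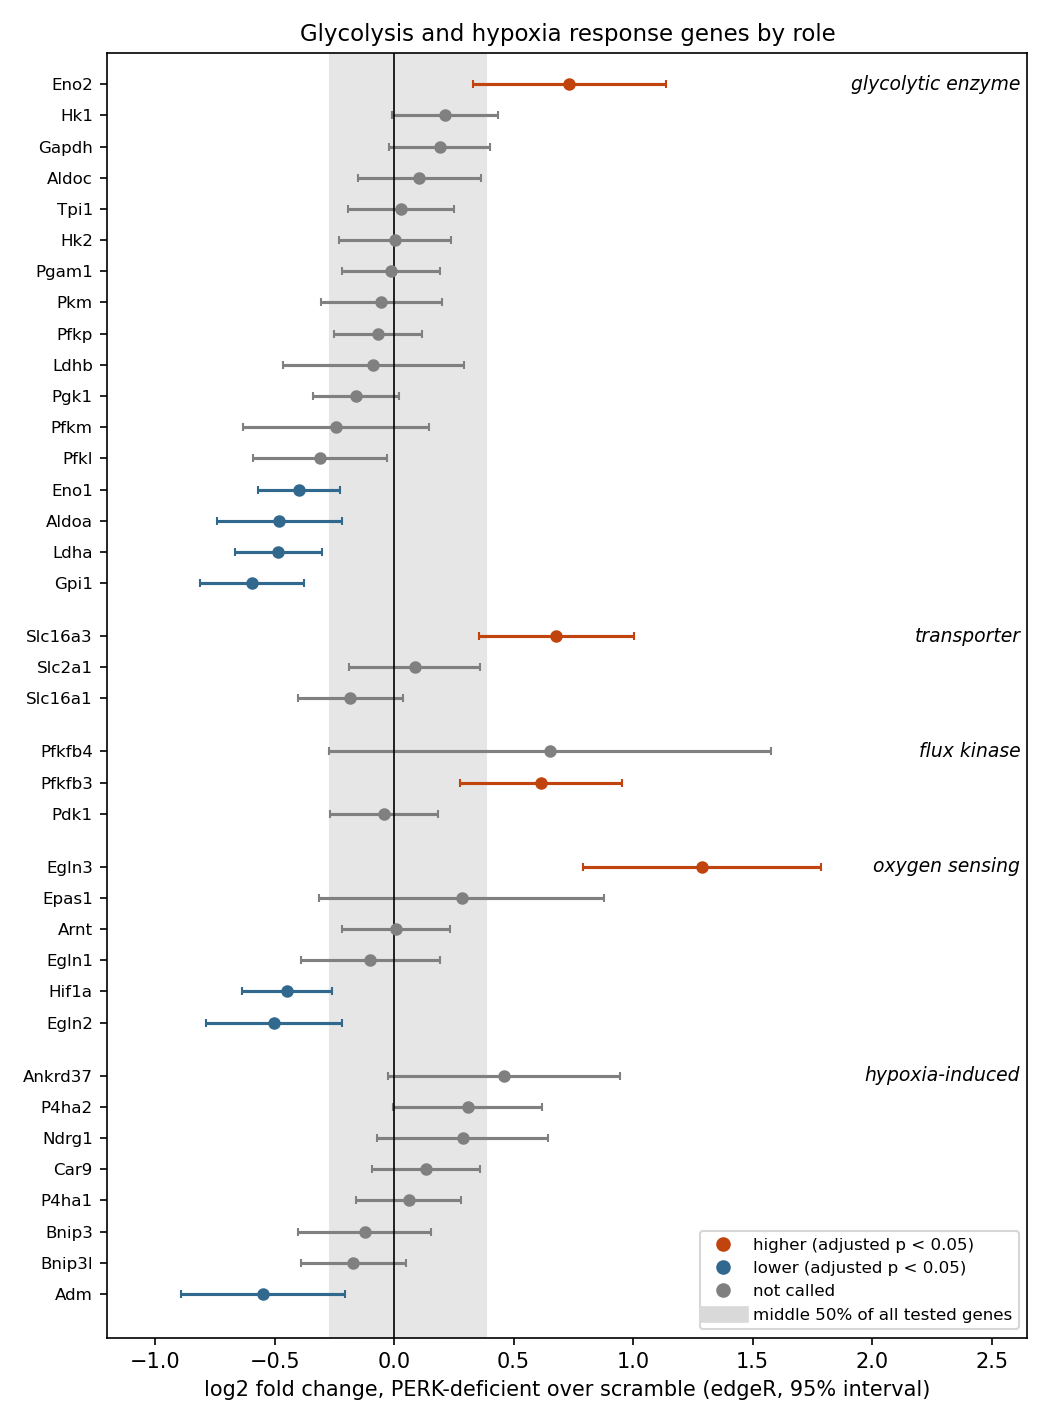
Log2 fold change of each of the 37 members, PERK-deficient over scramble tumours, by role, with 95% intervals from the edgeR fit; red and blue points passed the test and the grey band holds the middle 50% of all tested genes. Enzymes that passed lie mostly on the lower side, Egln3 lies farthest to the right at 1.29, and of the hypoxia-induced genes Adm alone passed.

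Of the 17 enzymes 4 fell, 1 rose and 12 did not pass. That is 29.4% called, against 13.8% of all tested genes and 17.2% of those with a mean of at least 10 CPM. Lower calls were 23.5% of enzymes and 6.13% of all tested genes, and higher calls 5.88% and 7.66%. Enzymes and transporters together had 30% called, close to the 29.4% of the 17 other members, with median log2 differences of -0.06 and 0.06. Whether these shares differ was not tested. The 4 enzymes that fell stand at 4 steps. Gpi1 interconverts glucose and fructose phosphates, Aldoa splits the 6-carbon sugar, Eno1 makes phosphoenolpyruvate, and Ldha turns pyruvate into lactate. Gpi1 (ENSMUSG00000036427.5, mm10 chr7:34201330-34230336) had 482, 638, 507 and 581 CPM in PERK-deficient libraries 1 to 4, against 895, 818, 844 and 782 CPM in scramble libraries 2 to 5. Every PERK-deficient library was below every scramble library, and the log2 change was -0.60 (SE 0.10, edgeR adjusted p = 0.00346). Ldha (ENSMUSG00000063229.15, chr7:46841475-46855627) had 1268, 1343, 1098 and 1289 CPM in PERK-deficient libraries, against 1733, 1711, 1791 and 1759 CPM in scramble libraries. The scramble values lay close together (SD 34.5 CPM), no library crossed over, and the log2 change was -0.48 (SE 0.08, adjusted p = 0.00399). Eno1 (ENSMUSG00000063524.13, chr4:150236721-150248879) had 1874, 1754, 1763 and 1926 CPM in PERK-deficient libraries, against 2551, 2458, 2359 and 2276 CPM in scramble libraries. These groups were apart too, with a log2 change of -0.40 (SE 0.08, adjusted p = 0.00797). Other annotated genes that share a near-identical stretch with Eno1 held 8.46% as many counts as Eno1 itself, so its level is less certain. Gpi1, Ldha and Eno1 passed whichever 1 of the 8 libraries was left out.

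Aldoa (ENSMUSG00000030695.16, chr7:126795234-126800751) had 1424, 1868, 1282 and 1287 CPM in PERK-deficient libraries, against 2028, 1963, 2169.8 and 2015 CPM in scramble libraries. PERK-deficient library 2 came close to the scramble values, and the log2 change was -0.48 (SE 0.12, edgeR adjusted p = 0.0211). The call ended without PERK-deficient library 1 (adjusted p = 0.0523) and without scramble library 2, 3, 4 or 5 (adjusted p = 0.0565, 0.0544, 0.0639 and 0.0525). A second row named Aldoa (ENSMUSG00000114515.2) held at most 0.953 CPM in any library and is not counted among the members. Together the 4 enzymes that fell took 5096 ± 391 CPM in PERK-deficient tumours and 7038 ± 178 CPM in scramble tumours (SD, n = 4 each).

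Eno2, the enolase named for neurons, was the enzyme that rose, at a far lower level than Eno1. Its values (ENSMUSG00000004267.16, chr6:124760053-124769673) were 18.4, 22.8, 24.6 and 17.8 CPM in PERK-deficient libraries, against 15.6, 11.2, 13.7 and 9.73 CPM in scramble libraries. The groups did not overlap, and the log2 change was 0.73 (SE 0.18, edgeR adjusted p = 0.0222). Its call ended without PERK-deficient library 3 (adjusted p = 0.0502), without scramble library 3 or 5 (0.0821 and 0.0692), and without PERK-deficient libraries 2 and 4 together (0.0514).

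Gapdh, which oxidises glyceraldehyde phosphate and is often used as a control gene, had the highest level per exon length of all members. It stood at 2033 ± 235 CPM per kb in PERK-deficient and 1782 ± 45.8 CPM per kb in scramble tumours (SD, n = 4 each). In CPM it had 8641, 9673, 7520.0 and 7781 in PERK-deficient libraries, against 7447, 7287, 7581 and 7146 in scramble libraries. The groups overlapped, and the log2 difference of 0.19 (95% interval -0.02 to 0.40) missed the threshold in edgeR (adjusted p = 0.243), although it passed in DESeq2 (adjusted p = 0.0353). Within a library, where scaling has no part, Gapdh made up 42.5, 42.7, 42.6 and 41.8% of the summed CPM of the 17 enzymes in PERK-deficient tumours. In scramble tumours that share was 35.0, 35.8, 35.1 and 35.0%, with no overlap, a measure chosen after its values were seen. The summed enzymes include Gpi1, Aldoa, Eno1 and Ldha, which fell, so the share does not show a rise of Gapdh itself. Without Gapdh the sum was 11400 ± 1222 CPM in PERK-deficient and 13544 ± 438 CPM in scramble tumours (SD, n = 4 each). The sum of the 17 was 17650 to 22636 CPM in PERK-deficient and 20355 to 21572 CPM in scramble tumours, which overlap. Gapdh shares near-identical stretches with 43 other annotated genes, which held 0.615% as many counts.

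The other 11 enzymes also missed the threshold. They were the hexokinases Hk1 and Hk2, the phosphofructokinases Pfkl, Pfkm and Pfkp, Aldoc, Tpi1, Pgk1, Pgam1, the pyruvate kinase Pkm, and Ldhb, with log2 differences from -0.31 for Pfkl to 0.21 for Hk1. Pgk1, which makes the first ATP of the pathway, had 582 to 681 CPM in PERK-deficient and 699 to 766 CPM in scramble libraries, apart but uncalled (log2 difference -0.16, edgeR adjusted p = 0.248). Of the exon length of Pfkp 5.58% lies opposite exons of Pitrm1, so its count is less certain. Pfkl, the liver type of the committed step, passed without PERK-deficient library 2 (log2 change -0.45, adjusted p = 0.0200) and with library totals in place of TMM (adjusted p = 0.0308), and also without libraries 2 and 4 together (adjusted p = 0.0248). Missing the threshold does not show that a gene was equal: of the 26 members not called, 19 had a 95% interval within 1.5-fold either way, and Pfkl, Pfkm, Pfkfb4, Epas1, Ankrd37, Ndrg1 and P4ha2 did not.

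**Figure D2:**
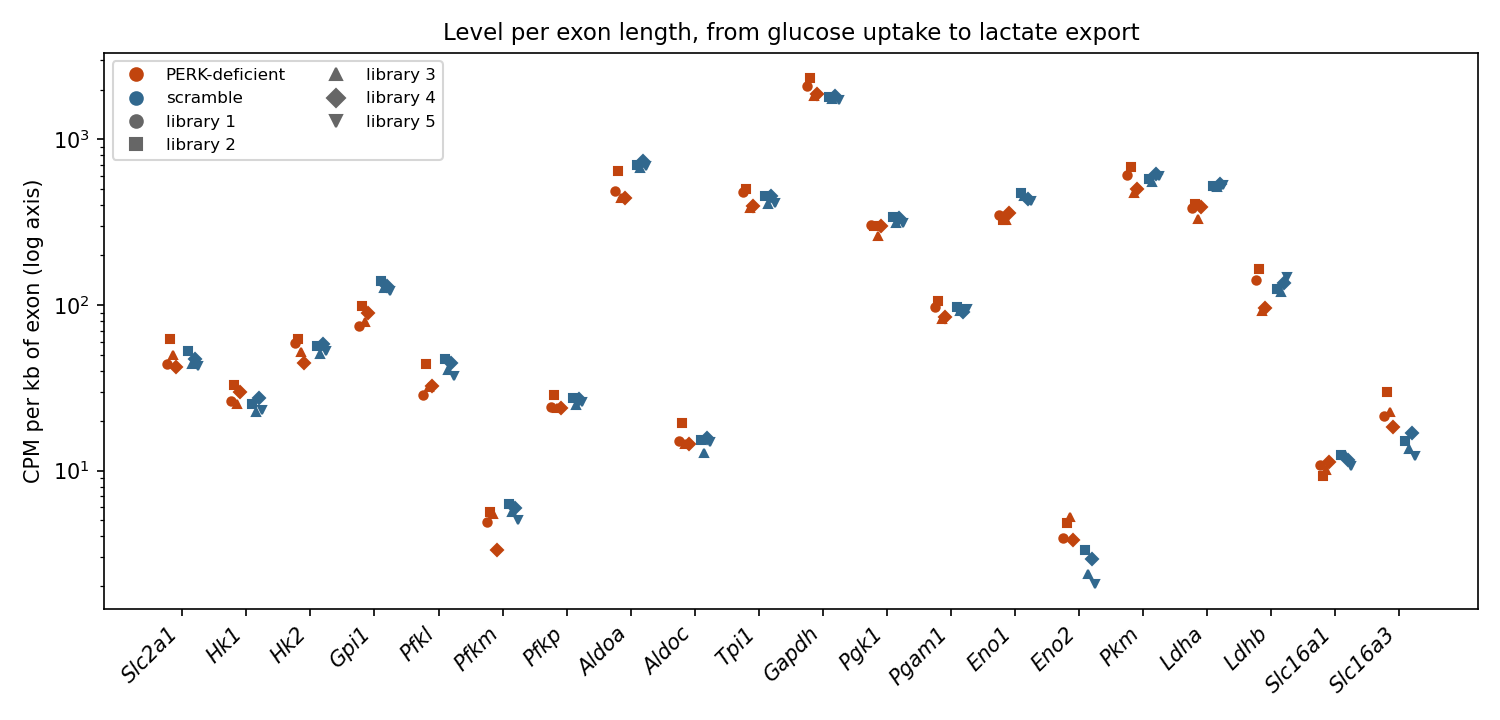
CPM per kb of exon on a log axis for the glucose transporter Slc2a1, the 17 enzymes in the order of the pathway and the 2 lactate transporters, 1 point per library, PERK-deficient tumours left of scramble tumours. Gapdh stands highest and Eno2 and Pfkm lowest, and the drop of Gpi1, Aldoa, Eno1 and Ldha is small beside the spread of levels between genes.

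Which isozyme of a step had more RNA was compared as the ratio of their levels per exon length within each library, for 10 pairs, with no test. By this measure the main isozyme stayed the same in all 8 libraries at the hexokinase, phosphofructokinase, aldolase, enolase and lactate dehydrogenase steps. At the phosphofructokinase step it was Pfkl, but this order depends on exon length (6675 bases for Pfkl and 13401 for Pfkp). In CPM Pfkp exceeded Pfkl, with means of 336 against 228 in PERK-deficient and 353 against 283 in scramble tumours. At the aldolase and enolase steps the margin of the main isozyme was smaller in PERK-deficient tumours. Aldoa exceeded Aldoc, the brain type, 32.5-, 33.3-, 30.3- and 30.6-fold in PERK-deficient libraries, against 45.2-, 52.5-, 47.3- and 46.6-fold in scramble libraries. Eno1 exceeded Eno2 89.0-, 67.4-, 62.8- and 94.5-fold in PERK-deficient libraries, against 143-, 191-, 151- and 205-fold in scramble libraries. Neither pair overlapped between the groups. Aldoa, Eno1 and Eno2 each passed the test alone, so these ratios are no support separate from those calls. The same holds for the ratios with Slc16a3 and Egln3 given below. Ldha exceeded Ldhb, the form that favours lactate use, 2.69-, 2.45-, 3.60- and 4.05-fold in PERK-deficient and 4.22-, 4.33-, 3.97- and 3.61-fold in scramble libraries, with overlap through PERK-deficient library 4. Hk2, the inducible hexokinase, exceeded Hk1 by 1.49- to 2.23-fold in PERK-deficient and 2.14- to 2.25-fold in scramble libraries. The ratios of Pfkp and of Pfkm to Pfkl overlapped as well, as did P4ha2 to P4ha1 and Epas1 to Hif1a.

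**Figure D3:**
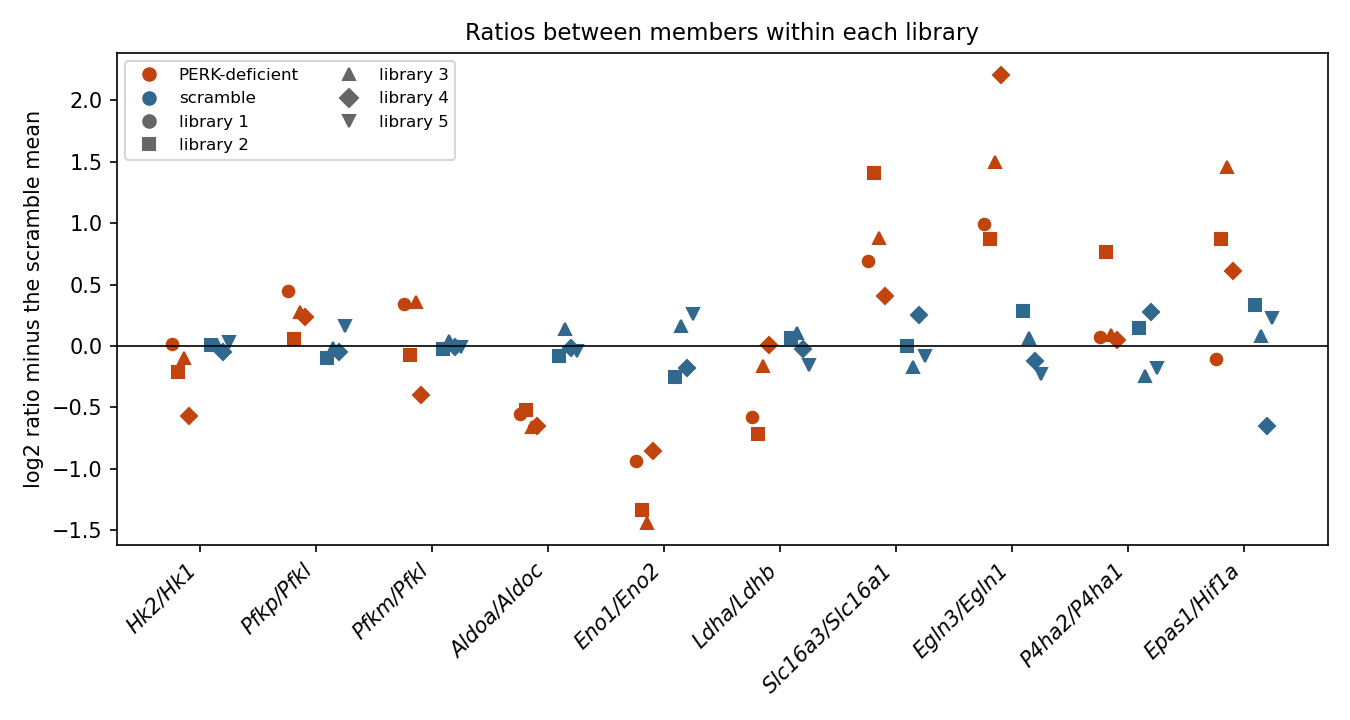
Log2 ratio of 2 members within each library, minus the mean of the scramble libraries, PERK-deficient left of scramble for each pair, symbols by library number. The groups separate for Aldoa/Aldoc and Eno1/Eno2 (PERK-deficient below) and for Slc16a3/Slc16a1 and Egln3/Egln1 (PERK-deficient above), and overlap for the other 6 pairs.

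Of the 3 transporters the lactate exporter Slc16a3 (MCT4) rose, while the glucose transporter Slc2a1 (GLUT1) and the lactate transporter Slc16a1 (MCT1) did not pass. Slc16a3 (ENSMUSG00000025161.16, chr11:120948480-120960868) had 113, 159.7, 119.7 and 97.3 CPM in PERK-deficient libraries, against 80.3, 71.5, 89.2 and 65.1 CPM in scramble libraries. The groups stood apart with a narrow gap between PERK-deficient library 4 and scramble library 4, and the log2 change was 0.68 (SE 0.15, edgeR adjusted p = 0.0123). Its call ended without scramble library 3 (adjusted p = 0.0502). The level of Slc16a3 per exon length was 1.97, 3.24, 2.24 and 1.62 times that of Slc16a1 in PERK-deficient libraries, against 1.22, 1.08, 1.45 and 1.15 times in scramble libraries. Slc2a1 had 149 to 219.5 CPM in PERK-deficient and 149.8 to 185 CPM in scramble libraries (log2 difference 0.09, 95% interval -0.19 to 0.36). Slc16a1 had 41.0 to 50.0 CPM in PERK-deficient and 47.0 to 55.0 CPM in scramble libraries (log2 difference -0.18).

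Among the kinases that set the flux, Pfkfb3, which makes the activator of phosphofructokinase, rose. Its values (ENSMUSG00000026773.19, chr2:11471433-11554077) were 35.8, 48.5, 38.3 and 57.6 CPM in PERK-deficient libraries, against 29.9, 31.7, 24.9 and 31.3 CPM in scramble libraries. The lowest PERK-deficient library lay just above the highest scramble library, and the log2 change was 0.61 (SE 0.16, edgeR adjusted p = 0.0231). The call ended without PERK-deficient library 2 (adjusted p = 0.0545) and without scramble library 2, 3, 4 or 5 (0.0633, 0.058, 0.0772 and 0.0539). Without PERK-deficient libraries 2 and 4 together, chosen after the data were seen, the difference was 0.33 (adjusted p = 0.145). Its relative Pfkfb4 was low, with 2.35 to 5.15 CPM in PERK-deficient and 1.10 to 3.41 CPM in scramble libraries, and a wide interval (log2 difference 0.65, -0.27 to 1.58). Pdk1, which shuts pyruvate out of the mitochondrial cycle, had 87.6 to 121 CPM in PERK-deficient and 100.6 to 112 CPM in scramble libraries (log2 difference -0.04).

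**Figure D4:**
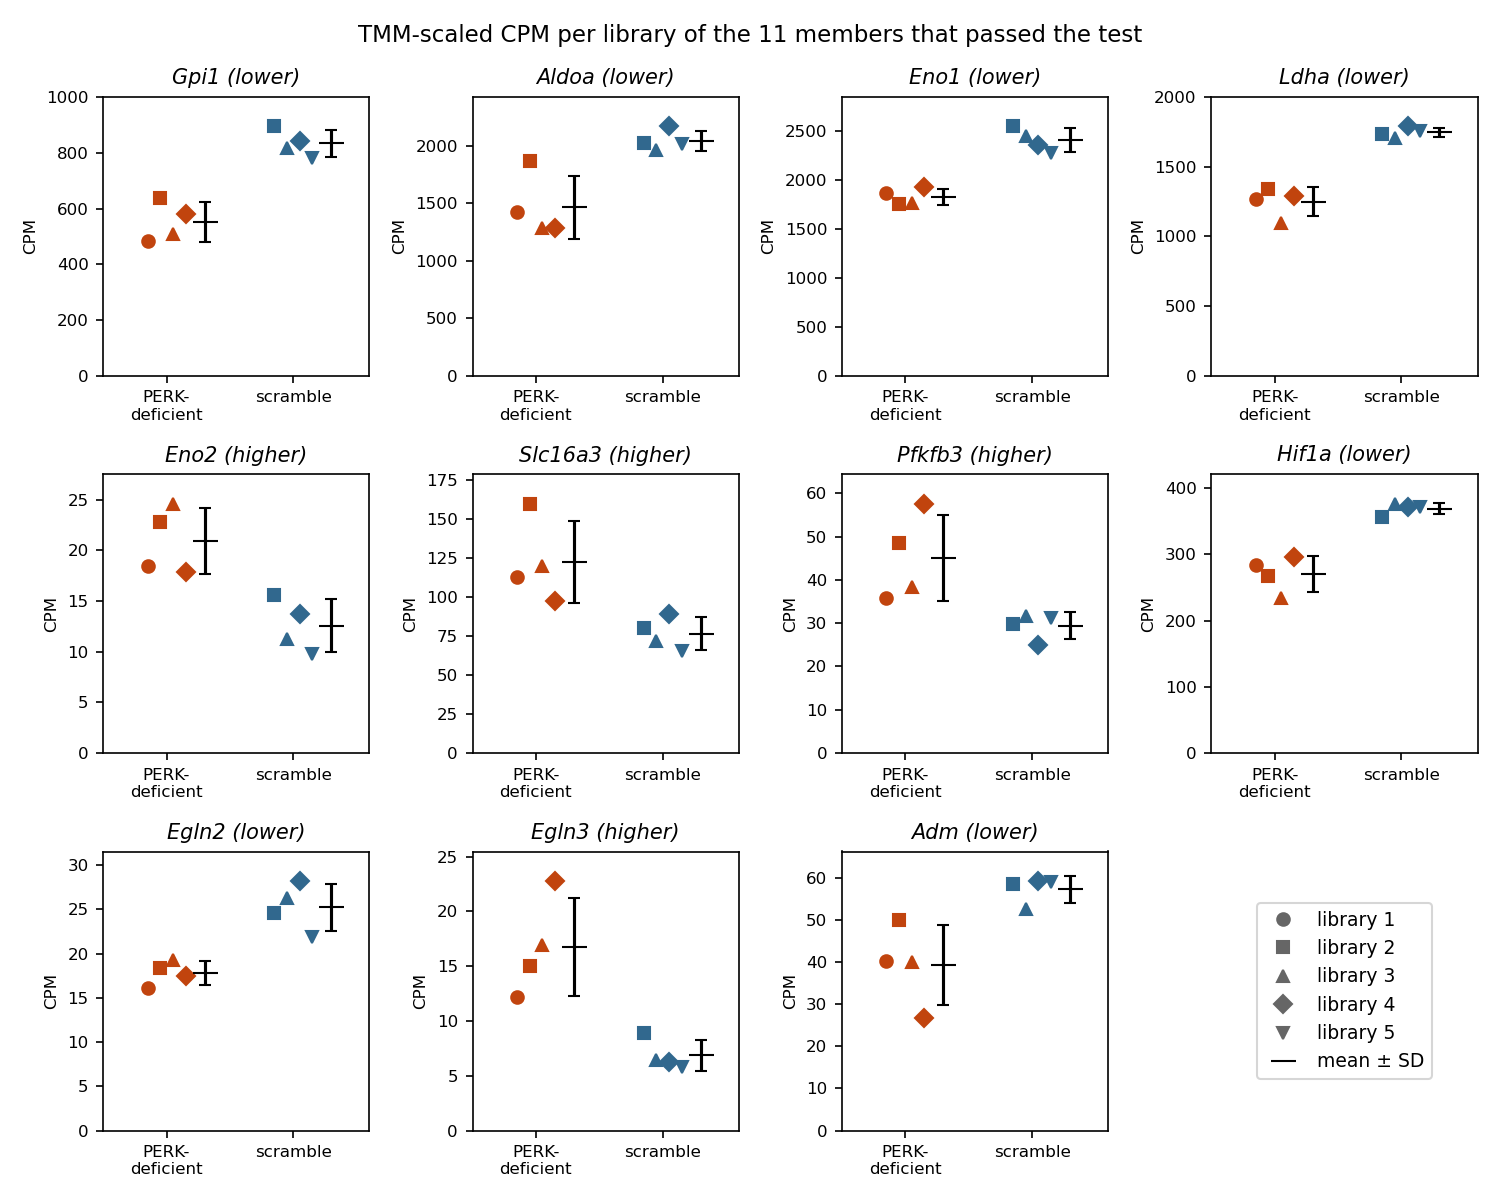
TMM-scaled CPM in each library for the 11 members that passed the test, PERK-deficient left of scramble, with the mean and SD of 4 libraries in black and axes from 0. In all 11 panels the groups do not overlap; Egln3 and Pfkfb3 are highest in PERK-deficient library 4 and Slc16a3 in PERK-deficient library 2.

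The genes of oxygen sensing split. Egln3, a hydroxylase that HIF itself induces, rose, while Hif1a, the oxygen-regulated factor, and Egln2, the least oxygen-responsive hydroxylase, fell. Egln3 (ENSMUSG00000035105.5, chr12:54178981-54203860) had 12.2, 15.0, 16.9 and 22.7 CPM in PERK-deficient libraries, against 8.91, 6.46, 6.24 and 5.80 CPM in scramble libraries. Every PERK-deficient library was above every scramble library, and the log2 change was 1.29 (SE 0.23, edgeR adjusted p = 0.00447). Hif1a (ENSMUSG00000021109.13, chr12:73901375-73947530) had 284, 267, 234 and 296 CPM in PERK-deficient libraries, against 357, 376, 371 and 372 CPM in scramble libraries. Every PERK-deficient library was below the scramble range, and the log2 change was -0.45 (SE 0.09, adjusted p = 0.00678). HIF1A is set mostly by protein breakdown, so its RNA level is not a measure of its activity. Both calls held whichever 1 of the 8 libraries was left out.

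Egln2 (ENSMUSG00000058709.11, chr7:27158658-27166802) had 16.1, 18.4, 19.2 and 17.4 CPM in PERK-deficient libraries, against 24.5, 26.3, 28.2 and 21.9 CPM in scramble libraries. The groups did not overlap, and the log2 change was -0.50 (SE 0.13, edgeR adjusted p = 0.025). That call ended without scramble library 2, 3 or 4 (adjusted p = 0.065, 0.09 and 0.0924), with upper-quartile scaling (0.0508), and without PERK-deficient libraries 2 and 4 together (0.0615). Egln1, the main oxygen sensor, had 165 to 275 CPM in PERK-deficient and 206 to 245 CPM in scramble libraries and did not pass (log2 difference -0.10). Per exon length Egln3 reached 0.0738 to 0.186 of the Egln1 level in PERK-deficient libraries, against 0.0345 to 0.0491 in scramble libraries, with no overlap. Epas1, the HIF factor prominent in endothelium, had 33.0 to 80.3 CPM in PERK-deficient and 29.6 to 56.3 CPM in scramble libraries (log2 difference 0.28, 95% interval -0.32 to 0.88). Arnt, the shared partner, had 61.2 to 81.6 CPM in PERK-deficient and 65.3 to 76.9 CPM in scramble libraries (log2 difference 0.01).

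Of the 8 genes that low oxygen induces, Adm fell and the other 7 did not pass. That share of 12.5% is close to the 13.8% called over all tested genes, and 17.2% were called among those with a mean of at least 10 CPM. Adm, which encodes the vessel-relaxing peptide adrenomedullin (ENSMUSG00000030790.15, chr7:110627661-110629820), had 40.3, 49.9, 40.0 and 26.8 CPM in PERK-deficient libraries, against 58.6, 52.6, 59.2 and 59.1 CPM in scramble libraries. PERK-deficient library 2 lay just below scramble library 3, and the log2 change was -0.55 (SE 0.16, edgeR adjusted p = 0.0384). This was the least stable call of the 11. It ended without PERK-deficient library 1 or 3 (adjusted p = 0.0665 and 0.063), without scramble library 2, 3, 4 or 5 (0.0944, 0.0727, 0.095 and 0.095), and with RLE or upper-quartile scaling (0.0538 and 0.0807).

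Car9, a membrane carbonic anhydrase used as a marker of hypoxic tumour, had 94.6 to 127 CPM in PERK-deficient and 94.5 to 108 CPM in scramble libraries (log2 difference 0.13, 95% interval -0.09 to 0.36). Bnip3 and Bnip3l, receptors for removal of mitochondria, differed by -0.12 and -0.17 on the log2 scale, and P4ha1 and P4ha2, subunits of collagen prolyl hydroxylase, by 0.06 and 0.31. Ankrd37 had 11.2 to 20.4 CPM in PERK-deficient and 9.58 to 13.0 CPM in scramble libraries, and 22.7% of its exon length lies opposite exons of Lrp2bp and 3.70% opposite those of Ufsp2, which has 476% as many counts, so its count is uncertain unless strand was used. Ndrg1, a stress-induced gene, had 79.8 to 147 CPM in PERK-deficient and 87.7 to 109 CPM in scramble libraries, and passed without PERK-deficient library 1 (log2 change 0.44, edgeR adjusted p = 0.0452). Without PERK-deficient libraries 2 and 4 its log2 difference was -0.05. The median log2 difference of these 8 genes was 0.10, against -0.02 over all tested genes.

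Other genes of the same pathways, from 2 lists that hold none of the members, also moved in both directions. Of 26 tested other glycolysis genes 3 rose and 3 fell (23.1% called), with a median log2 difference near 0 (-0.00441). Over all tested genes 13.8% were called, and 17.2% of those with a mean of at least 10 CPM. Got1, of the malate-aspartate shuttle, had 61.9 ± 8.69 CPM in PERK-deficient and 90.3 ± 5.59 CPM in scramble tumours (SD, n = 4 each; edgeR adjusted p = 0.00843). Ldhd, a D-lactate dehydrogenase, had 11.4 ± 3.12 CPM in PERK-deficient and 5.44 ± 1.10 CPM in scramble tumours (adjusted p = 0.0196), a call that ended without scramble library 2, 3 or 5 (0.0683, 0.0593 and 0.0657). The glycerol phosphate dehydrogenases went opposite ways, with log2 changes of 0.42 for Gpd2 and -0.49 for Gpd1. Gpd2 lost its call without PERK-deficient library 2 or 4 or any 1 scramble library (adjusted p = 0.0501 to 0.0719) or with library totals (0.0556), with a log2 difference of 0.23 without PERK-deficient libraries 2 and 4 together, and Gpd1 without PERK-deficient library 1, 3 or 4 or scramble library 2, 3 or 4 (0.0538 to 0.0931) or with upper-quartile scaling (0.0544). Hk3, the hexokinase of myeloid cells, had 3.98 ± 2.12 CPM in PERK-deficient and 1.11 ± 0.535 CPM in scramble tumours. It rose (log2 change 1.84), although the groups overlapped, with PERK-deficient library 3 below scramble library 5. While 15 of 15 macrophage and monocyte markers rose too, the part of these cells in the change of Hk3 was not tested. Pdp2, a phosphatase that activates pyruvate dehydrogenase, fell with a log2 change of -0.42. The Hk3 call ended without each of the libraries except PERK-deficient library 3, and that of Pdp2 likewise (adjusted p up to 0.136 for both). Without PERK-deficient libraries 2 and 4 together the log2 difference of Hk3 was 1.05 (adjusted p = 0.328), and Pdp2 was not called either (0.116). Hk3 was also not called with library totals (0.0552) or with no filter on low counts (0.0542). Pdp2 was also not called with RLE or upper-quartile scaling (0.0699 and 0.0983), with no filter or the stricter filter of 1 CPM in at least 4 libraries (0.059 and 0.0556), or with limma-voom (0.0976).

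Of 29 tested other hypoxia genes 2 rose and 4 fell, with a median log2 difference of -0.08. These calls are 20.7%, against 13.8% of all tested genes and 17.2% of those with a mean of at least 10 CPM. Stc2, the secreted glycoprotein stanniocalcin 2, had 10.9, 6.46, 9.89 and 5.64 CPM in PERK-deficient libraries, against 0.543, 0.532, 0.368 and 0.755 CPM in scramble libraries. Its groups were far apart, with a log2 change of 3.90 (SE 0.38, edgeR adjusted p = 0.000227). Loxl2, a lysyl oxidase that crosslinks collagen, had 15.5, 14.2, 13.3 and 11.2 CPM in PERK-deficient libraries, against 43.0, 45.4, 35.7 and 47.4 CPM in scramble libraries. It fell with a log2 change of -1.66 (SE 0.14, adjusted p = 9.11e-05). These 2 changes were larger than that of any of the 37 members, and both held in each of the 19 alternative settings. Narf fell (log2 change -0.63, adjusted p = 0.00984), and Bhlhe40, a repressor induced by HIF, rose (0.42, adjusted p = 0.0147), a call that ended without scramble library 3 or 5 (0.0578 and 0.0533) and without PERK-deficient libraries 2 and 4 together (0.0552). Mif, a cytokine with tautomerase activity, and Gys1, the glycogen synthase of muscle, fell with log2 changes of -0.36 and -0.39. The Mif call ended without PERK-deficient library 4 or scramble library 2 or 4 (adjusted p = 0.0514, 0.062 and 0.0801) or PERK-deficient libraries 2 and 4 together (0.0857), and with upper-quartile scaling (0.0526). That of Gys1 ended without PERK-deficient library 1, 3 or 4 or any 1 scramble library (0.0639 to 0.112), with RLE or upper-quartile scaling (0.0646 and 0.0867) and with the stricter filter of 1 CPM in at least 4 libraries (0.0513).

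Levels of the members spread more among PERK-deficient than among scramble libraries. The SD of log2 CPM was larger in PERK-deficient tumours for 33 of 37 members, with a median of 0.21 against 0.11 in scramble tumours, and for 85.0% of all tested genes. Among PERK-deficient libraries number 2 was highest for 22 of the 37 members and number 3 lowest for 15. By role, number 2 was highest for 14 of 17 enzymes, 2 of 3 transporters and 1 of 3 kinases. It was highest for 1 of 6 oxygen sensing and 4 of 8 hypoxia-induced genes. The same count over all tested genes was not made, so this order cannot be read as particular to the enzymes. PERK-deficient library 2 also had the highest share of mitochondrial counts and the lowest TMM factor (0.863, against 0.987 to 1.03 in the other 7). Without it the log2 changes of Gpi1, Aldoa, Eno1 and Ldha ran from -0.67 to -0.37, and all 4 passed. PERK-deficient library 4, which had the highest sums of leukocyte, macrophage, mast cell and epithelial markers and the lowest melanocyte sum, was also highest for Egln3 and Pfkfb3, which rose, and for Eno1 and Hif1a, which fell, and lowest for Eno2, Slc16a3 and Adm. Without it the log2 change was 1.10 for Egln3, 0.47 for Pfkfb3, 0.77 for Slc16a3 and 0.80 for Eno2. The part of these cell types, and of mitochondrial RNA, in the members' changes was not tested.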

How the data were processed

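Per the labels' protocols, tumours were digested with liberase and DNase, c-Kit positive cells were enriched with beads, and strand-specific libraries were sequenced. The submitters' processing notes name bcl2fastq, STAR 2.5.3a, HTSeq 0.6.1, DESeq2 1.30.1 and build mm10; the settings, the strand setting of the counting among them, are not given in the sources used here. The authors deposited raw counts per gene, which were tested, and a signal table that is those deposited counts divided by 1 factor per library, which served as a check only.

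Groups follow the labels. Counts of 8 libraries (29006949 to 56697163 each) were tested with edgeR 4.0.16 in R 4.3.3: TMM factors, low counts removed by group, a robust quasi-likelihood fit of group alone, and Benjamini-Hochberg adjustment over 16662 genes at 0.05. The method was tested on simulated data, where it missed most changes of the smallest size simulated, which is near that of most called members. A count of 3, taken as the detection floor, is 0.0515 to 0.100 CPM, and it covers counting error only. Isozyme ratios used counts per kb of the union of exons. Near-identical stretches (95% identity over at least 300 bases) were sought with blastn 2.17.0. The 19 alternatives covered scaling, filters, DESeq2 1.42.0, limma 3.58.1 with voom, the replicate block and libraries left out.

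The members and lists were chosen with earlier results of these data known. The text names any member, the checks Eif2ak3 and Kit, from each of the 2 lists of other pathway genes the 6 called genes with the smallest p, and of the marker lists, given as sums, epithelial ones with no count in a whole group; those of the red cell list are not reported here. Kit did not pass (log2 difference -0.16, adjusted p = 0.559).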

Additional observations from a re-analysis of the deposited data

Results flagged for a closer look

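In 5 of 74 groups of 4 libraries 1 library stood apart from the other 3 by Dixon's criterion, where chance alone flags about 1 in 20, or 3.7. PERK-deficient library 2 had 381 CPM of Pfkp, against 318 to 326 CPM in the other 3 PERK-deficient libraries. The same library had 62.9 CPM of Aldoc, against 47.2 to 49.1 CPM in the other 3. PERK-deficient library 3 had 582 CPM of Pgk1, against 677 to 681 CPM in the other 3, and it is the lowest of the 4 that all lie under the scramble values. Scramble library 3 had 100.6 CPM of Pdk1, against 111 to 112 CPM in the other 3 scramble libraries. It also had 52.6 CPM of Adm, against 58.6 to 59.2 CPM in the other 3. What sets these libraries apart was not tested.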

How the results depend on the processing

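Of 11 called members Gpi1, Eno1, Ldha, Hif1a and Egln3 passed whichever 1 library was left out, and no called member changed direction in any alternative. Leaving out 1 library gave 639 to 1372 genes higher and 439 to 1244 lower in PERK-deficient tumours, against 1277 and 1022 with all 8. Members called higher then numbered 1 (without scramble library 3) to 5 and lower 4 (without scramble library 2, 3 or 4) to 8, against 4 and 7. Calls in the other lists were 1 to 5 (glycolysis) and 4 to 8 (hypoxia), against 6 and 6. Without PERK-deficient libraries 2 and 4, an alternative chosen after seeing the data, 845 genes and 2 members were higher. Upper-quartile scaling called 653 genes lower. DESeq2 called 1883 higher and 1091 lower. The cause of these moves was not tested.

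The replicate numbers that both groups share do not pair the libraries: the correlations of deviations were -0.04, 0.11 and -0.30 for numbers 2, 3 and 4, and 1 library, PERK-deficient library 3, correlated best with its own number. With the replicate block edgeR called 127 genes higher and 81 lower, 0 members higher and 0 lower, 0 other glycolysis genes and 2 other hypoxia genes. At an unadjusted p under 0.05 the block fit had 7 members higher and 8 lower. Without the block edgeR had 4 higher and 8 lower at that threshold, and DESeq2 had 8 and 8. For other glycolysis genes the block fit had 3 higher and 4 lower, edgeR without the block 5 and 5, and DESeq2 6 and 4. After adjustment DESeq2 without the block called 12 members and 6 other glycolysis genes, and edgeR without the block called 11 and 6.

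Uncalled members turned direction in some alternatives, all but Ndrg1 with a log2 difference within 0.2 of 0. With library totals the log2 difference was -0.0760 for Hk2, -0.0494 for Tpi1, -0.00181 for Slc2a1, -0.0677 for Arnt and -0.00764 for P4ha1. With no filter it was -0.00787 for Hk2 and -0.00500 for Arnt. With the replicate block it was -0.0609 for Hk2, -0.0463 for Tpi1 and -0.0590 for Arnt. With RLE scaling it was 0.0278 for Pgam1. With upper-quartile scaling it was 0.0442 for Pgam1, 0.00337 for Pkm and 0.0116 for Pdk1. With the stricter filter it was 0.0170 for Pgam1. With DESeq2 it was 0.0278 for Pgam1. Without PERK-deficient libraries 2 and 4 it was -0.00685 for Slc2a1 and -0.0490 for Ndrg1. With voom it was -0.00905 for Arnt. Leaving out 1 library gave -0.0623 to 0.0846 for Hk2, -0.0300 to 0.0838 for Tpi1, -0.0767 to 0.0390 for Pgam1, -0.15 to 0.0189 for Pkm, -0.25 to 0.0285 for Ldhb, -0.0394 to 0.15 for Slc2a1, -0.11 to 0.0321 for Pdk1, -0.0559 to 0.0778 for Arnt and -0.0320 to 0.12 for P4ha1.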
